A study of Mus musculus with 43 samples.

Results

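The retinal ganglion cell genes described here were Rbpms, Pou4f1, Pou4f2, Pou4f3, Slc17a6, Sncg, Nefl, Nefm, Nefh and Thy1, 10 genes of the 54532 in the table of read counts. They were taken by their symbols, and no value entered that rule. All 10 had a row in the table, and all 10 were among the 18173 genes that passed the filter on low counts and were tested. Short-chain fatty acids (SCFA) are products of bacterial fermentation in the gut. The question was how the transcripts of ganglion cells stood in lasered retina of either sex, with and without SCFA in the drinking water, over the days after the laser.

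RNA had been measured in 43 libraries, each made from 2 lasered retinas of different C57BL/6J mice of the same group. All mice, controls included, were 9 weeks old when they received laser lesions that induce choroidal neovascularization (CNV), so no group shows unlasered retina. The 12 groups were males (M) or females (F), without (CTR) or with SCFA, at 3, 7 or 14 days post-lesion (dpl), and M14SCFA2 is thus the second library of SCFA males at 14 dpl. SCFA mice drank water with 67.5 mM sodium acetate, 40 mM sodium propionate and 25 mM sodium butyrate from before the laser until they were killed. The amounts in g/L that accompany these doses would reverse the last 2 of them, so the doses of propionate and butyrate are uncertain. Libraries were whole retina, in which fewer ganglion cells and less RNA per ganglion cell cannot be told apart.

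The fit used 42 libraries. It had 4 M3CTR, 3 M3SCFA, 3 M7CTR, 5 M7SCFA, 3 M14CTR and 3 M14SCFA libraries from males. From females there were 3 F3CTR, 4 F3SCFA, 3 F7CTR, 4 F7SCFA, 3 F14CTR and 4 F14SCFA libraries. The left-out library, F3SCFA2, carried lens transcripts at a summed 210400 CPM, where CPM is a gene's count scaled to a library total of 1000000 after TMM normalization. Lens transcripts summed to 0.51 to 355 CPM in the control libraries and to 2.935 to 602 CPM in the SCFA libraries of the fit. Total counts were between 14826957 and 21507527, so that 3 counts, the floor used here, were worth between 0.136 and 0.208 CPM, and every member was above it in every library. The first 31 and the last 12 columns of the table were kept as a block. They are called the first and the second run here, although no label names a batch. The second run held M3CTR3, M3CTR4, M3SCFA2, M3SCFA3, M7SCFA4, M7SCFA5, F3SCFA4, F3SCFA5, F7SCFA4, F14CTR2, F14CTR3 and F14SCFA4. Genes of rods, the most numerous cells of the retina, summed to between 46270 and 96520 CPM, and the T cell genes, which bear on Thy1, to at most 2.14 CPM. Some libraries stood apart from their labels or their groups. F7CTR2, labelled female, held 308 counts of the Y-linked Ddx3y, where the other female libraries held 0. Myelin genes of the optic nerve summed to 286, 931 and 710 CPM in M7CTR2, M7CTR3 and M7SCFA2, against a median of 54.6 CPM in all controls. Mitochondrial mRNAs took 13.8% and 14.8% of the counts in M7SCFA1 and M7SCFA3.

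Retinal ganglion cells are the output neurons of the eye, and their axons form the optic nerve. They take up a small part of the retina, so their transcripts serve as markers of the inner retina in bulk RNA. Rbpms encodes an RNA-binding protein found across ganglion cell types, and the POU-domain transcription factors Pou4f1, Pou4f2 and Pou4f3 (Brn3a, Brn3b and Brn3c) set up and maintain ganglion cell identity. Slc17a6 encodes the vesicular glutamate transporter VGLUT2 that loads their synaptic vesicles, and Sncg encodes gamma-synuclein. Nefl, Nefm and Nefh encode the light, medium and heavy neurofilament subunits that fill large axons, and Thy1 encodes a glycosylated surface protein of neurons and T cells. Horizontal cells also make neurofilaments.

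The genes lie apart on GRCm38, apart from one pair. Rbpms (ENSMUSG00000031586) spans chr8:33782643-33929863 and Pou4f2 (ENSMUSG00000031688) chr8:78433010-78436645. Pou4f1 (ENSMUSG00000048349) spans chr14:104461676-104467999 and Sncg (ENSMUSG00000023064) chr14:34370274-34374789. Nefl (ENSMUSG00000022055) spans chr14:68083863-68089095 and Nefm (ENSMUSG00000022054) chr14:68082590-68124846. Their exons share 1108 bases on opposite strands, so that reads there cannot be assigned to one of them unless the counting used strand, which is not given in the sources used here. Pou4f3 has the identifier ENSMUSG00000024497. Slc17a6 (ENSMUSG00000030500) spans chr7:51622006-51671119, Nefh (ENSMUSG00000020396) chr11:4938754-4948064 and Thy1 (ENSMUSG00000032011) chr9:44043384-44048579. No other member shares exon bases with another annotated gene.

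Promoters of 4 members are shown, taken from the RefSeq table for GRCm38.p6, which gives 250 bases before and 50 after a transcription start. In the comparison averaged over sex and day, Slc17a6 and Sncg were called lower with SCFA, and Pou4f1 and Pou4f2 were not called. Whether these members differ in their response was not tested, nor was any part of the promoters in it. Capitals mark matches on either strand to the GC box GGGCGG, the TATA box TATAAA, the CCAAT box CCAAT and ATTAAT, letters within the AT-rich sites that Pou4f proteins bind. Sequences run 5′ to 3′ along the gene's strand.
Slc17a6, chr7:51621580-51621879, plus strand: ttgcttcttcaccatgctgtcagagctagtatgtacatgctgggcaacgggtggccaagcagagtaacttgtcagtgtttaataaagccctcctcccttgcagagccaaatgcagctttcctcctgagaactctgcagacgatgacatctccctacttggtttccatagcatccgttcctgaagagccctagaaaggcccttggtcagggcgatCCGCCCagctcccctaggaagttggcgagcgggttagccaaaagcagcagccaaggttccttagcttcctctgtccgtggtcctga
Slc17a6, second start, chr7:51624387-51624686, plus strand: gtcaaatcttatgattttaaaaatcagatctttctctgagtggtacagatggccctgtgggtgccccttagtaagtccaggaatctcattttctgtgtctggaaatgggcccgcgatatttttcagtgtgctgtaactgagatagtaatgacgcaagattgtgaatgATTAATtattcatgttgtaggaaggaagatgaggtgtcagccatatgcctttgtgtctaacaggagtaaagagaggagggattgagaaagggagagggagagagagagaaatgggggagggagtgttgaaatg
Sncg, chr14:34374620-34374919, minus strand: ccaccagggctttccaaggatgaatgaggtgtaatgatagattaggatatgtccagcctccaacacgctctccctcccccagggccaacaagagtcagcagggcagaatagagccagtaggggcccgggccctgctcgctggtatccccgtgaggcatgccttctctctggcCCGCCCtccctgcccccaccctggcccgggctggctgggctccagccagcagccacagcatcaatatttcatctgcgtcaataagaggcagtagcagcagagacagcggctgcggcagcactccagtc
Pou4f1, chr14:104467950-104468249, minus strand: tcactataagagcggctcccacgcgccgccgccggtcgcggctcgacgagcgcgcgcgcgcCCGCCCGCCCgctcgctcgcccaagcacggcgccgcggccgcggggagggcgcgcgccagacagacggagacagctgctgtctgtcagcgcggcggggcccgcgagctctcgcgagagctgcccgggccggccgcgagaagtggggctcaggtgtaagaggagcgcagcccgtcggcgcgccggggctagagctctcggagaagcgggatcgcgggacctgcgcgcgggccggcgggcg
Pou4f2, chr8:78436598-78436897, minus strand: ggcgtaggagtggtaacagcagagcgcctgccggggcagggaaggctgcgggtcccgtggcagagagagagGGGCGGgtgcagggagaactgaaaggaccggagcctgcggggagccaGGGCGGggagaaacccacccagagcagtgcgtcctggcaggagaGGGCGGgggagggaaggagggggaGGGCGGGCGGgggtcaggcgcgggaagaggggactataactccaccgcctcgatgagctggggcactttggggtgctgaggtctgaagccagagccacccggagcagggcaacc

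The GC box occurred 5 times in the Pou4f2 promoter, where 2 copies overlap, and 2 times in that of Pou4f1, where the copies also overlap. It occurred 1 time each in the Sncg promoter and in the first Slc17a6 promoter. Of 32851 promoters of this length, 35.7% held it. The second Slc17a6 start was the only window of the 5 with ATTAAT, which 4.75% of all promoters held. TATAAA (13.6% of all promoters) and CCAAT (37.4%) were in none of the 5 windows. G and C made up 78.3% of the Pou4f1 window and 69.7% of the Pou4f2 window, and 53.7%, 43% and 61.3% of the 2 Slc17a6 windows and the Sncg window, against a median of 52.7% over all promoters. These are matches of letters and show no binding.

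The members differed widely in level. Per kilobase of exon, the median over the 42 libraries was highest for Sncg (159 CPM per kb) and Nefl (118 CPM per kb), followed by Thy1 (71.6), Nefh (25.7) and Nefm (24.4). Pou4f1 (8.07) and Slc17a6 (8.05) lay close together on this scale, above Rbpms (5.18), Pou4f2 (3.84) and Pou4f3 (2.12). Counts of a member in a library ran from 39, for Pou4f3, to 11276, for Nefl, so Pou4f3 is the member with the coarsest counting. The spread over libraries, as highest over lowest CPM, was 4.85 for Nefm and 4.08 for Pou4f3, and least for Pou4f1 (1.96) and Thy1 (2.01).

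With SCFA, 7 of the 10 genes were lower when the 6 sex and day strata were averaged with equal weight, and none was higher. In this comparison 36.7% of all genes tested were called at an adjusted p under 0.1 by edgeR's quasi-likelihood test, 19% of them all as lower with SCFA. The genes called were Nefh, Pou4f3, Nefm, Thy1, Slc17a6, Sncg and Rbpms. Pou4f1, Pou4f2 and Nefl were not. The log2 fold change (SCFA minus control) was negative for 9 of 10 members, with a median of -0.24, where the median of all genes tested was -0.01. Every averaged change was below a factor of 2.

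The share of mitochondrial mRNA was also compared between the treatments. In the first run it took a median of 5.88% of counts in 15 control libraries (4.71% to 9.05%) and 7.28% in 15 SCFA libraries (4.86% to 14.8%). In the second run it took 2.5% to 3.24% in 4 control libraries and 3.73% to 4.57% in 8 SCFA libraries, which did not overlap. Those controls were of M3CTR and F14CTR only, while the SCFA libraries also came from M7SCFA, F3SCFA and F7SCFA. With this share as a covariate, an alternative chosen after the data had been seen, 4 members were called lower (Pou4f3, Thy1, Nefh and Rbpms). Without a block for the run of columns 4 were called, and in the first run alone 5 were. The share of all genes called in these fits is not given, so the lower counts are not read as particular to the members. The part of RNA quality or of cell composition in the response was not tested.

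**Figure D1:**
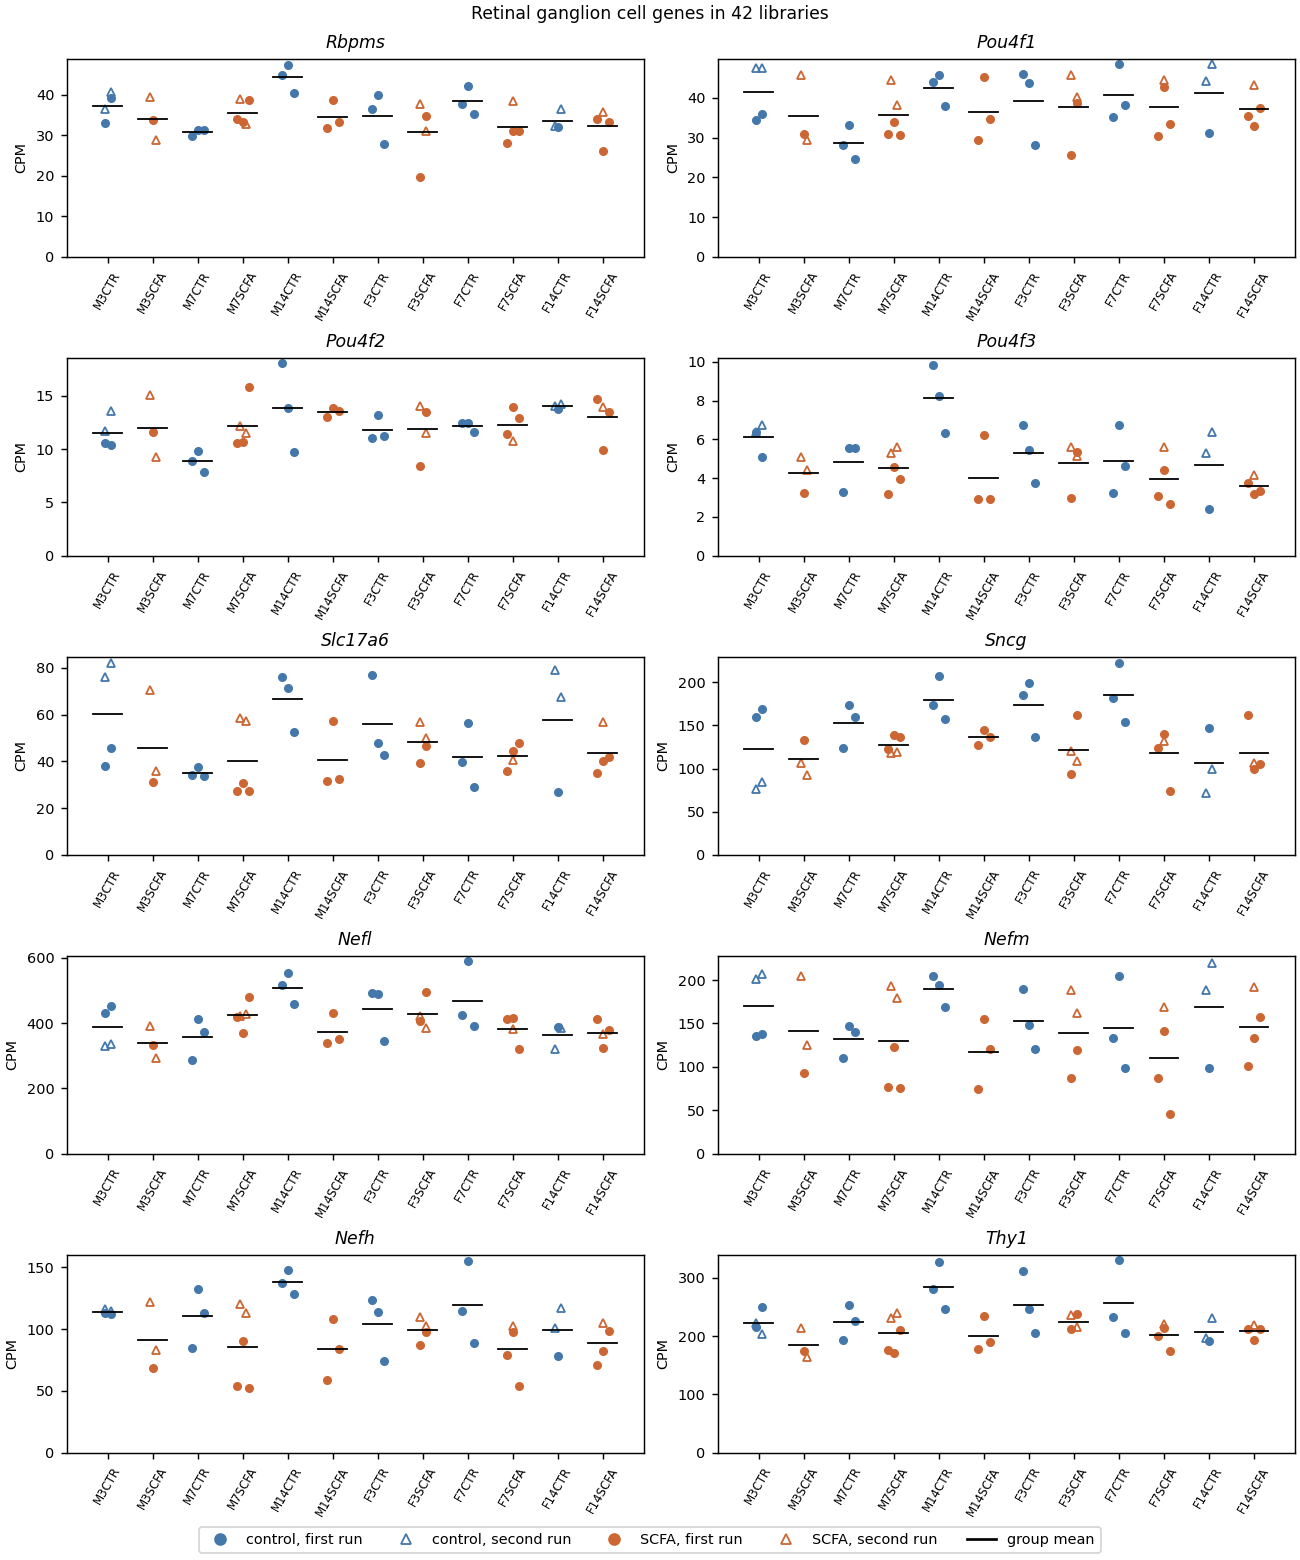
CPM of each of the 10 genes (y axes, from 0) in 42 libraries by group (x axes); circles are first-run and open triangles second-run libraries, blue is control, orange SCFA, and black lines are group means. The M14CTR libraries of Pou4f3, at 6.32 to 9.82 CPM, stand above all M14SCFA libraries, and the second-run controls of Sncg, at 72 to 99 CPM, lie below all first-run controls.

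Nefh, the heavy neurofilament, had the smallest adjusted p of the 10 genes in the averaged comparison. Over all libraries it ran from 74.6 to 155 CPM under control (median 115, n = 19) and from 52 to 122 CPM under SCFA (median 90.4, n = 23). Nefh stood at 113, 112, 116 and 115 CPM in the M3CTR libraries and at 68.3, 122 and 83.0 CPM in the M3SCFA libraries. In males at 7 dpl, the values of Nefh were 85.04, 132 and 113 CPM under control and 53.7, 90.4, 52.02, 120.1 and 113 CPM under SCFA. The M14CTR libraries held 137, 148 and 129 CPM of Nefh, and the M14SCFA libraries held 59.2, 108 and 84.1 CPM. The 3 M14SCFA libraries were all below the 3 M14CTR libraries, whereas M7SCFA4 and M7SCFA5, of the second run, lay within the M7CTR range and M7SCFA1 and M7SCFA3 far below it. Nefh stood at 124, 114 and 74.6 CPM in the F3CTR libraries and at 87.3, 97.5, 109 and 103 CPM in the F3SCFA libraries. In females at 7 dpl, the values of Nefh were 115, 155 and 88.9 CPM under control and 79.1, 98.1, 54.2 and 103 CPM under SCFA. The F14CTR libraries held 78.6, 101 and 117 CPM of Nefh, and the F14SCFA libraries held 70.8, 82.4, 98.1 and 105 CPM. In all 3 female strata the groups overlapped. The averaged log2 fold change was -0.43 ± 0.09 (SE; 0.741-fold), with edgeR's adjusted p = 0.000457, and it was negative in 5 of 6 strata. Of 42 single omissions of a library, none ended the call. With the mitochondrial share as a covariate it was -0.24 (edgeR's adjusted p = 0.0503).

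Nefm, the medium neurofilament, fell about as far and varied more between libraries. It ran from 98.1 to 219 CPM under control (median 148) and from 45.2 to 205 CPM under SCFA (median 125). In males at 3 dpl, the values of Nefm were 136, 138, 201 and 207 CPM under control and 93.2, 205 and 125 CPM under SCFA. The M7CTR libraries held 109.7, 148 and 141 CPM of Nefm, and the M7SCFA libraries held 76.96, 122, 75.6, 193 and 179.6 CPM. Nefm stood at 204, 194 and 169 CPM in the M14CTR libraries and at 74.6, 156 and 121 CPM in the M14SCFA libraries. Second-run libraries were the highest ones of M3CTR, M3SCFA and M7SCFA, while M3SCFA3, also of the second run, lay below all M3CTR libraries. The F3CTR libraries held 190.1, 148 and 120.1 CPM of Nefm, and the F3SCFA libraries held 87.4, 119, 188 and 162 CPM. Nefm stood at 133, 205 and 98.1 CPM in the F7CTR libraries and at 86.98, 141, 45.2 and 169 CPM in the F7SCFA libraries. In females at 14 dpl, the values of Nefm were 99.2, 189 and 219 CPM under control and 101, 133, 157 and 192 CPM under SCFA. F7SCFA3, at 45.2 CPM, was the lowest of the 42 libraries. The averaged change was -0.44 ± 0.11 (SE), a 0.738-fold level, with edgeR's adjusted p = 0.00192. It was -0.24 with the mitochondrial share as a covariate (edgeR's adjusted p = 0.129) and -0.29 without the block (edgeR's adjusted p = 0.173), so this call depended on both choices.

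Nefl, the light neurofilament, is the most abundant of the 3 subunits in CPM and was not called in the averaged comparison. It ran from 288 to 590.4 CPM under control (median 412) and from 292 to 495 CPM under SCFA (median 391). The M3CTR libraries held 432, 452, 331 and 335 CPM of Nefl, and the M3SCFA libraries held 332, 391 and 292 CPM. Nefl stood at 288, 412 and 371 CPM in the M7CTR libraries and at 419, 369, 480.4, 423 and 427 CPM in the M7SCFA libraries. In males at 14 dpl, the values of Nefl were 516, 552 and 458 CPM under control and 339.8, 431 and 350.1 CPM under SCFA. In males at 14 dpl the groups did not overlap, while at 7 dpl 4 of 5 SCFA libraries were above all controls. In females at 3 dpl, the values of Nefl were 492, 488 and 346 CPM under control and 405, 495, 423 and 384 CPM under SCFA. The F7CTR libraries held 425, 590.4 and 390.4 CPM of Nefl, and the F7SCFA libraries held 413, 415, 322 and 382 CPM. Nefl stood at 387, 320.1 and 386 CPM in the F14CTR libraries and at 413, 325, 378 and 367 CPM in the F14SCFA libraries. F7CTR2, the library with Y-linked counts, was the highest of the 42 for Nefl, Sncg, Nefh and Thy1. Averaged over strata, Nefl changed by -0.10 ± 0.06 (SE), with edgeR's adjusted p = 0.232.

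The subunits thus did not keep one ratio. Nefm over Nefl, as a ratio of CPM within a library, had a median of 0.347 in first-run controls (0.251 to 0.396, n = 15) and 0.243 in first-run SCFA libraries (0.14 to 0.416, n = 15). In the second run it was 0.568 to 0.618 in 4 controls and 0.421 to 0.524 in 8 SCFA libraries, which did not overlap. Nefh over Nefl had medians of 0.262 and 0.205 in the first run. In the second run it was 0.304 to 0.351 under control and 0.259 to 0.311 under SCFA. Controls of the second run were of M3CTR and F14CTR only, while its SCFA libraries also came from M7SCFA, F3SCFA and F7SCFA. The ratios were formed after the values had been seen and are given as a description.

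**Figure D2:**
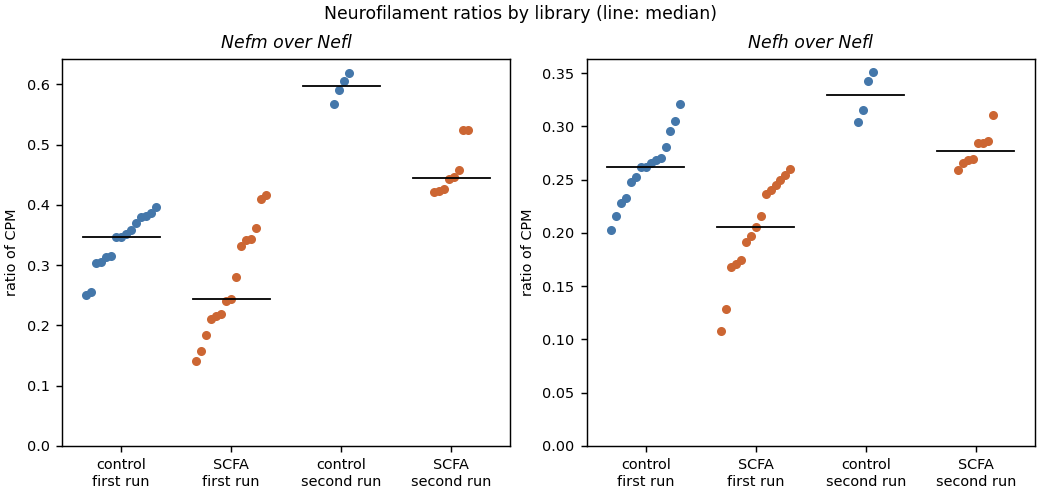
Ratio of Nefm to Nefl CPM (left) and of Nefh to Nefl CPM (right) in each library (points), by treatment and run of columns (x axes); lines are medians and both y axes start at 0. Second-run medians are above first-run medians of the same treatment, and within each run the SCFA median is below the control median.

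Pou4f3, the least abundant member, had the most negative averaged change. It ran from 2.41 to 9.82 CPM under control (median 5.58) and from 2.67 to 6.23 CPM under SCFA (median 4.18). The M3CTR libraries held 6.38, 5.07, 6.38 and 6.72 CPM of Pou4f3, and the M3SCFA libraries held 3.25, 5.10 and 4.44 CPM. In males at 7 dpl, the values of Pou4f3 were 3.29, 5.58 and 5.58 CPM under control and 3.199, 4.601, 3.95, 5.28 and 5.61 CPM under SCFA. Pou4f3 stood at 9.82, 8.22 and 6.32 CPM in the M14CTR libraries and at 2.92, 6.23 and 2.93 CPM in the M14SCFA libraries. M14SCFA2 was more than 2 times as high as M14SCFA1 and M14SCFA3, yet below every M14CTR library. The F3CTR libraries held 6.72, 5.44 and 3.77 CPM of Pou4f3, and the F3SCFA libraries held 2.99, 5.32, 5.595 and 5.14 CPM. In females at 7 dpl, the values of Pou4f3 were 3.21, 6.75 and 4.62 CPM under control and 3.07, 4.43, 2.67 and 5.63 CPM under SCFA. Pou4f3 stood at 2.41, 5.32 and 6.38 CPM in the F14CTR libraries and at 3.77, 3.17, 3.32 and 4.18 CPM in the F14SCFA libraries. F14CTR1, of the first run, was the lowest library of the 42, and the other F14CTR libraries, of the second run, were above all F14SCFA libraries. The averaged change was -0.49 ± 0.11 (SE; 0.711-fold), with edgeR's adjusted p = 0.000988. It was negative in 6 of 6 strata, from -1.01 to -0.12, and it stayed called in all 42 omissions of a single library. It was -0.47 in the second run alone, where male 3 dpl and female 14 dpl have both treatments (edgeR's adjusted p = 0.0898).

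Pou4f1 and Pou4f2 did not pass the test. Pou4f1 ran from 24.7 to 48.6 CPM under control (median 38.1) and from 25.7 to 45.8 CPM under SCFA (median 35.5). In males at 3 dpl, the values of Pou4f1 were 34.4, 36.02, 47.5 and 47.5 CPM under control and 30.97, 45.7 and 29.4 CPM under SCFA. Pou4f1 stood at 28.3, 33.2 and 24.7 CPM in the M7CTR libraries and at 30.9, 33.8, 30.5, 44.5 and 38.1 CPM in the M7SCFA libraries. The M14CTR libraries held 44.03, 45.7 and 37.9 CPM of Pou4f1, and the M14SCFA libraries held 29.5, 45.3 and 34.6 CPM. M7CTR was the one group with each of its libraries below 34 CPM. In females at 3 dpl, the values of Pou4f1 were 46.1, 43.7 and 28.2 CPM under control and 25.7, 38.8, 45.8 and 40.1 CPM under SCFA. Pou4f1 stood at 35.3, 48.4 and 38.1 CPM in the F7CTR libraries and at 30.4, 42.8, 33.5 and 44.4 CPM in the F7SCFA libraries. The F14CTR libraries held 31.2, 44.2 and 48.6 CPM of Pou4f1, and the F14SCFA libraries held 35.5, 33.01, 37.5 and 43.2 CPM. The groups overlapped in all 6 strata. Averaged over strata, Pou4f1 changed by -0.14 ± 0.07 (SE), with edgeR's adjusted p = 0.124.

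Pou4f2, which acts first among the 3 factors in ganglion cell development, had the averaged change nearest to 0. It ran from 7.88 to 18 CPM under control (median 11.6) and from 8.39 to 15.8 CPM under SCFA (median 12.9). Pou4f2 stood at 10.6, 10.4, 11.6 and 13.6 CPM in the M3CTR libraries and at 11.6, 15.1 and 9.21 CPM in the M3SCFA libraries. The M7CTR libraries held 8.89, 9.79 and 7.88 CPM of Pou4f2, and the M7SCFA libraries held 10.6, 10.7, 15.8, 12.1 and 11.5 CPM. In males at 14 dpl, the values of Pou4f2 were 18.01, 13.8 and 9.72 CPM under control and 13.01, 13.9 and 13.5 CPM under SCFA. The M7SCFA libraries were all above the M7CTR libraries, whereas those groups overlapped for Pou4f1 and Pou4f3. Pou4f2 stood at 11.01, 13.2 and 11.2 CPM in the F3CTR libraries and at 8.39, 13.5, 14.1 and 11.5 CPM in the F3SCFA libraries. The F7CTR libraries held 12.4, 12.5 and 11.6 CPM of Pou4f2, and the F7SCFA libraries held 11.4, 13.97, 12.9 and 10.8 CPM. In females at 14 dpl, the values of Pou4f2 were 13.7, 14.1 and 14.2 CPM under control and 14.7, 9.904, 13.4 and 13.9 CPM under SCFA. Among females the groups overlapped at every day. The averaged change was 0.05 ± 0.075 (SE), with edgeR's adjusted p = 0.645.

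Slc17a6, the vesicular glutamate transporter, had a highest library 3.03 times its lowest. It ran from 27 to 81.9 CPM under control (median 47.9) and from 27.2 to 70.3 CPM under SCFA (median 40.7). The M3CTR libraries held 38.1, 45.6, 76.2 and 81.9 CPM of Slc17a6, and the M3SCFA libraries held 31.4, 70.3 and 35.7 CPM. Slc17a6 stood at 33.96, 37.4 and 33.5 CPM in the M7CTR libraries and at 27.3, 30.6, 27.2, 58.5 and 57.1 CPM in the M7SCFA libraries. In males at 14 dpl, the values of Slc17a6 were 76.1, 71.4 and 52.6 CPM under control and 31.6, 57.1 and 32.4 CPM under SCFA. Within M3CTR and M7SCFA the second-run libraries were far above the first-run ones. Slc17a6 stood at 77.03, 47.9 and 42.6 CPM in the F3CTR libraries and at 39.4, 46.5, 57.0 and 49.8 CPM in the F3SCFA libraries. In females at 7 dpl, the values of Slc17a6 were 39.5, 56.4 and 29.2 CPM under control and 35.98, 44.3, 47.9 and 40.7 CPM under SCFA. The F14CTR libraries held 27.04, 78.9 and 67.6 CPM of Slc17a6, and the F14SCFA libraries held 34.8, 40.1, 41.9 and 56.7 CPM. F14CTR shows the same split, with its first-run library the lowest of the 42. Averaged over strata, Slc17a6 changed by -0.35 ± 0.10 (SE; 0.783-fold), with edgeR's adjusted p = 0.0061, and it was negative in 6 of 6 strata. It was -0.21 in the first run alone (edgeR's adjusted p = 0.182), -0.47 in the second run alone (0.0983), -0.26 without the block (0.181) and -0.22 with the mitochondrial share as a covariate (0.186).

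Sncg, gamma-synuclein, had averaged changes of opposite sign in the 2 runs, which do not cover the same strata. It ran from 72 to 222 CPM under control (median 159.9) and from 74.3 to 162 CPM under SCFA (median 123). In males at 3 dpl, the values of Sncg were 159.9, 169, 76.6 and 84.4 CPM under control and 133, 106 and 92.3 CPM under SCFA. The M7CTR libraries held 123, 174 and 160.1 CPM of Sncg, and the M7SCFA libraries held 123, 138, 137, 118 and 119 CPM. Sncg stood at 174, 207 and 158 CPM in the M14CTR libraries and at 127, 144 and 137 CPM in the M14SCFA libraries. In M3CTR both first-run libraries were far above both second-run libraries. The F3CTR libraries held 186, 199 and 137 CPM of Sncg, and the F3SCFA libraries held 93.3, 162, 119.9 and 109 CPM. Sncg stood at 182, 222 and 154 CPM in the F7CTR libraries and at 123, 140.3, 74.3 and 132 CPM in the F7SCFA libraries. In females at 14 dpl, the values of Sncg were 147, 71.97 and 99.0 CPM under control and 162, 99.8, 105 and 106 CPM under SCFA. All 3 F7CTR libraries were above all F7SCFA libraries, and all 3 M14CTR libraries above all M14SCFA libraries. The averaged change was -0.24 ± 0.09 (SE; 0.848-fold), with edgeR's adjusted p = 0.0452. It was not called without F3SCFA1 (-0.18), F7SCFA3 (-0.18) or F3CTR2 (-0.20), nor with the mitochondrial share as a covariate (-0.24, edgeR's adjusted p = 0.129). In the first run alone, over all sex and day strata, the averaged change was -0.38 (edgeR's adjusted p = 0.00963). In the second run alone it was 0.31 (0.0856), from 4 control and 3 SCFA libraries of males at 3 dpl and females at 14 dpl only. The difference between the runs in the response, tested in the fit of 42 libraries, was 0.79 ± 0.22 (SE), with edgeR's adjusted p = 0.0135. In that test, chosen after the data had been seen, 23.4% of all genes were called, and no other member was. The second-run controls were of M3CTR and F14CTR only, so run and stratum are mixed in this difference.

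Rbpms and Thy1, both markers of ganglion cells as a whole, fell as well. Rbpms ran from 27.95 to 47.5 CPM under control (median 36.5) and from 19.8 to 39.5 CPM under SCFA (median 33.4). Rbpms stood at 33.03, 39.2, 36.4 and 40.8 CPM in the M3CTR libraries and at 33.9, 39.5 and 28.8 CPM in the M3SCFA libraries. In males at 7 dpl, the values of Rbpms were 29.7, 31.4 and 31.3 CPM under control and 33.97, 33.3, 38.8, 39.01 and 32.9 CPM under SCFA. The M14CTR libraries held 44.9, 47.5 and 40.6 CPM of Rbpms, and the M14SCFA libraries held 31.9, 38.6 and 33.4 CPM. The groups did not overlap at 7 dpl, with SCFA higher, nor at 14 dpl, with SCFA lower. Rbpms stood at 36.5, 39.9 and 27.95 CPM in the F3CTR libraries and at 19.8, 34.7, 37.8 and 30.96 CPM in the F3SCFA libraries. In females at 7 dpl, the values of Rbpms were 37.6, 42.3 and 35.2 CPM under control and 28.2, 30.96, 31.2 and 38.4 CPM under SCFA. The F14CTR libraries held 32.04, 32.3 and 36.6 CPM of Rbpms, and the F14SCFA libraries held 33.9, 26.2, 33.4 and 35.9 CPM. F3SCFA1 was the lowest library of the 42. Averaged over strata, Rbpms changed by -0.15 ± 0.06 (SE; 0.899-fold), with edgeR's adjusted p = 0.0475, and leaving out a single library ended this call in 6 of 42 cases. These were F3SCFA1 (-0.10, edgeR's adjusted p = 0.159), F7SCFA3, M7SCFA1, M7SCFA2, F3CTR2 and F14CTR3 (-0.13 to -0.12). Rbpms was also not called without the block, in the first run alone, with the GC and length offset, without a filter on low counts and without the myelin-rich libraries, with log2 fold changes of -0.16 to -0.12 and edgeR's adjusted p from 0.106 to 0.162.

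Thy1 ran from 192 to 331 CPM under control (median 230.3) and from 165 to 239 CPM under SCFA (median 212). In males at 3 dpl, the values of Thy1 were 216, 250.2, 222 and 204 CPM under control and 175, 214 and 165 CPM under SCFA. The M7CTR libraries held 193, 253 and 226 CPM of Thy1, and the M7SCFA libraries held 177, 171, 211, 232 and 239 CPM. Thy1 stood at 279.9, 327 and 247 CPM in the M14CTR libraries and at 178, 235 and 189 CPM in the M14SCFA libraries. Over all strata no SCFA library was above 239 CPM, and 8 of 19 control libraries were. In females at 3 dpl, the values of Thy1 were 312, 246 and 205 CPM under control and 212, 237, 235 and 215 CPM under SCFA. The F7CTR libraries held 233, 331 and 205 CPM of Thy1, and the F7SCFA libraries held 199.6, 214, 174 and 221 CPM. Thy1 stood at 192, 197 and 230.3 CPM in the F14CTR libraries and at 211, 193, 213 and 219.6 CPM in the F14SCFA libraries. Averaged over strata, Thy1 changed by -0.25 ± 0.06 (SE; 0.84-fold), with edgeR's adjusted p = 0.00196. It was negative in 5 of 6 strata, and no omission of a single library ended the call. With an offset for GC content and length, chosen after the data had been seen, Thy1 changed by -0.15 (edgeR's adjusted p = 0.0351), and Nefh and Nefm by -0.28 and -0.29, all still called. The T cell genes stayed at or below 2.14 CPM in sum in all 42 libraries.

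**Figure D3:**
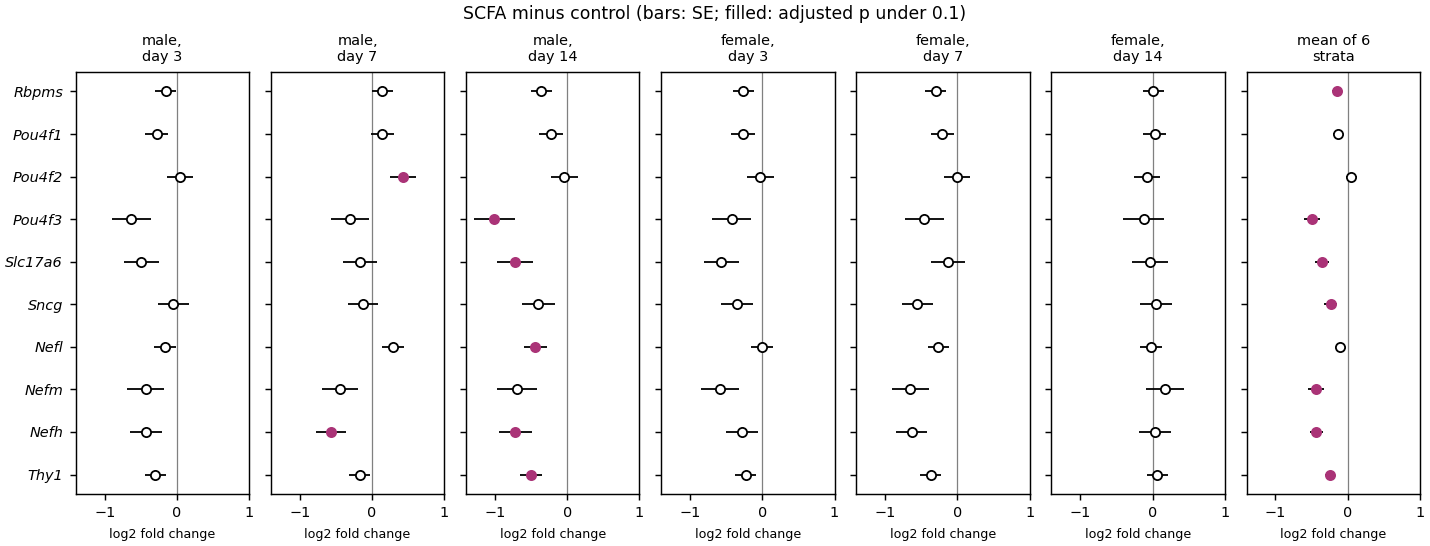
Log2 fold change of SCFA minus control (x axes) for each gene (rows) in the 6 sex and day strata and in their mean; bars are SE, and filled points have an adjusted p under 0.1 by edgeR. In males at 14 dpl all 10 points are at or below 0, in females at 14 dpl they lie around 0, and in the mean 7 are filled.

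Among the single strata, calls were made in males at 14 dpl and at 7 dpl. At 14 dpl, 5 of 10 members were lower with SCFA and none was higher, where 9.68% of all genes were called and 5.15% were called as lower. Pou4f3 had a log2 fold change of -1.01 ± 0.28 (SE), with edgeR's adjusted p = 0.0463, and its mean went from 8.12 ± 1.75 to 4.03 ± 1.91 CPM (SD, n = 3 each). Nefh changed by -0.72 ± 0.23 (SE), with edgeR's adjusted p = 0.0696. Slc17a6 changed by -0.72 ± 0.25 (SE), and its groups overlapped through M14SCFA2. Thy1 (-0.50 ± 0.16) and Nefl (-0.44 ± 0.16) fell without overlap. Nefm (-0.69), Sncg (-0.40) and Rbpms (-0.36) missed the threshold, as did Pou4f1 and Pou4f2, although the groups did not overlap for Nefm, Sncg and Rbpms. The share of all genes without overlap was not determined in any comparison, so a lack of overlap only describes these libraries. The call rested on 6 libraries: without M14SCFA1, M14SCFA3, M14CTR1 or M14CTR2 no member was called, and without M14SCFA2 or M14CTR3 there were 6 and 5. Without the block the count was also 0, and in the first run alone it was 2.

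In males at 7 dpl, 23.8% of all genes were called, and among the members Nefh was lower and Pou4f2 higher. Nefh had means of 110.2 ± 23.8 CPM (SD, n = 3) under control and 85.9 ± 32.1 CPM (SD, n = 5) under SCFA. Its log2 fold change was -0.57 ± 0.21 (SE), with edgeR's adjusted p = 0.0573. Pou4f2 rose by 0.43 ± 0.18 (SE), with edgeR's adjusted p = 0.0986, from 8.85 ± 0.96 CPM (SD, n = 3) to 12.2 ± 2.14 CPM (SD, n = 5). Neither was called without M7SCFA1 and M7SCFA3, the libraries with the highest mitochondrial shares, nor with that share as a covariate, nor without the libraries rich in myelin genes. Without the myelin-rich libraries Nefh changed by -0.29 and Pou4f2 by 0.46. With the covariate they changed by -0.07 and 0.25, and in the study's own choice of libraries, without the block, by -0.03 and 0.38. The count was also 0 without M7SCFA3, M7CTR2 or M7CTR3 alone. Genes of other cell types were called in the same comparison. Of 7 Müller cell genes 3 were higher, Glul (1.02 ± 0.19, SE), Rlbp1 (0.89 ± 0.21) and Aqp4 (0.83 ± 0.20), and Clu was lower (-0.63 ± 0.20). Higher were also 2 of 4 horizontal cell genes, Onecut2 (0.82 ± 0.24) and Lhx1 (0.72 ± 0.26), and 2 of 7 amacrine genes, Gad2 (0.67 ± 0.22) and Tfap2b (0.64 ± 0.23). Of 5 smooth muscle and pericyte genes Rgs5 was higher (0.71 ± 0.13) and Myh11 lower (-0.80 ± 0.30). The part of these cell types in the values of Pou4f2 and Nefh was not tested.

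No member was called in the other strata. In males at 3 dpl 0.0275% of all genes were called, in females at 3 dpl 0.418% and at 7 dpl 0.941%, and in females at 14 dpl 0%, with 0 genes called by DESeq2 also and 579 genes at an unadjusted p under 0.05. By an unadjusted p under 0.05, edgeR had 2 members in males at 3 dpl, 2 in females at 3 dpl, 5 in females at 7 dpl and 0 in females at 14 dpl. DESeq2 called 0, 0, 1 and 0. In females at 7 dpl all 10 log2 fold changes were negative, with a median of -0.34. In females at 14 dpl 4 were negative, and the median was 0.02. For the strata other than females at 14 dpl, no number over all genes stands beside the unadjusted counts. None stands beside the signs in any stratum. These counts and signs are therefore not read as results about the members.

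The response of males minus that of females was not called for any member. At 14 dpl 9 of 10 differences were negative, with a median of -0.51. That of Thy1 was -0.57 ± 0.22 (SE) and that of Pou4f3 -0.89 ± 0.40 (SE), with edgeR's adjusted p = 0.413 and 0.421. At 3 and 14 dpl 0% of all genes were called by edgeR, with 1496 and 2034 genes at an unadjusted p under 0.05, and at 7 dpl 0.0165% were. DESeq2 called 4 and 1 genes at 3 and 14 dpl. Members at an unadjusted p under 0.05 numbered 0, 2 and 4 at 3, 7 and 14 dpl, and DESeq2 called none of them. For 7 dpl no such number over all genes is given.

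Among control mice at 14 dpl, 4 members were higher in males than in females, Pou4f3, Thy1, Nefh and Rbpms, and none was lower. Of all genes 6.28% were called, 2.81% as higher in males. This comparison shares its M14CTR libraries with that of SCFA in males at 14 dpl, so the values of the 2 are not independent. Male controls held 8.12 ± 1.75 CPM of Pou4f3 and female controls 4.7 ± 2.06 CPM (SD, n = 3 each), a log2 difference of 1.17 ± 0.30 (SE) with edgeR's adjusted p = 0.041. The groups overlapped, since F14CTR3 of the second run, at 6.38 CPM, was above M14CTR3. The mean of Thy1 was 285 ± 40.4 CPM in the males, against 206 ± 21 CPM, a difference of 0.54 ± 0.16 (SE). Nefh differed by 0.77 ± 0.24 (SE) and Rbpms by 0.50 ± 0.16 (SE), both without overlap. All M14CTR libraries were of the first run, as was only F14CTR1 among the females. The count was 0 in the first run alone, without the block, with the mitochondrial share as a covariate and under a block for replicate number, and 0 to 2 on leaving out one of the 6 libraries.

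No member was called between the sexes elsewhere, nor over time. Among controls 0.0495% of all genes were called at 3 dpl and 0.0495% at 7 dpl, and in the mean of the 6 strata of day and treatment 1.9% were, with 0 members by edgeR or DESeq2 in each. At an unadjusted p under 0.05 there were 0, 4 and 0 members, and at 7 dpl all 10 genes had lower fitted values in control males, and a median log2 difference of -0.27. For time, averaged over sex and treatment, 0.0055% of genes were called from 3 to 7 dpl, 0.0385% from 7 to 14 dpl and 1.58% from 3 to 14 dpl. Again 0 members were called by either tool, and 0, 2 and 1 had an unadjusted p under 0.05. Medians of the members' log2 changes were -0.0027 from 3 to 7 dpl, 0.06 from 7 to 14 dpl and 0.08 from 3 to 14 dpl. The most positive was Slc17a6 from 7 to 14 dpl, at 0.30. No number over all genes stands beside the unadjusted counts and signs of sex and time. They are therefore not read as results about the members.

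By the order of group means, which are not adjusted for the run of columns although the groups hold from 0 to 2 second-run libraries, M14CTR was the highest group for 8 of the 10 genes. The exceptions were Sncg, with F7CTR first (186 ± 34.2 CPM, SD, n = 3) and M14CTR next (179.6 ± 25.1 CPM), and Pou4f2, with F14CTR (14 ± 0.27 CPM) just ahead of M14CTR (13.9 ± 4.15 CPM), which do not differ beyond their spread. The lowest group was M7CTR for Pou4f1 (28.7 ± 4.26 CPM), Pou4f2 (8.85 ± 0.96 CPM) and Slc17a6 (35 ± 2.13 CPM). F7SCFA was lowest for Nefm (111 ± 55.4 CPM, n = 4) and Nefh (83.5 ± 22.1 CPM), M3SCFA for Nefl (338 ± 49.8 CPM) and Thy1 (184 ± 26.3 CPM), F14SCFA for Pou4f3 (3.61 ± 0.46 CPM), F14CTR for Sncg (106 ± 38.1 CPM, with 2 of its 3 libraries from the second run, in which Sncg was lower) and F3SCFA for Rbpms (30.8 ± 7.89 CPM). Of 110 pairs of neighbours in these orders, 93 were closer than the smaller SD of the pair.

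Members differed between the runs of columns in both directions. With group held constant, second-run libraries had more Nefm (log2 difference 0.81 ± 0.14, SE), Slc17a6 (0.71 ± 0.13), Pou4f3 (0.50 ± 0.14), Nefh (0.41 ± 0.11) and Pou4f1 (0.38 ± 0.08), and less Sncg (-0.35 ± 0.11). These 6 passed at an adjusted p under 0.1 by edgeR, as did Rbpms (0.16 ± 0.08). Pou4f2, Nefl and Thy1 did not. The share of all genes called between the runs was not determined, so this count is not read as particular to the members. The run holds male 7 dpl and female 3 and 7 dpl only as SCFA libraries, and male 14 dpl not at all.

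Within groups and runs, the members moved together from library to library. The deviations of log2 CPM from the fitted group and run, over 42 libraries, correlated positively in 44 of the 45 pairs, with a median Pearson's r of 0.59, and 37 pairs had an adjusted p under 0.05 by a permutation test (100000 two-sided permutations, adjusted over the 45 pairs). These deviations share the library's depth, scaling and cell makeup. Deviations within a group offset each other, which the permutations did not keep, so their p-values may be too small. Pairs of other genes were not examined, so the correlations are not read as particular to the members. Nefl and Thy1 were among the closest, with r = 0.91 and Spearman's rho = 0.91 (permutation p = 1e-05 for both, the smallest the permutations can give, adjusted p = 3e-05, and r = 0.89 without the 2 libraries farthest from the median). Nefm and Nefh had r = 0.91 and rho = 0.92, with the same permutation p (r = 0.92 without 2 libraries). Sncg and Nefl followed at r = 0.76 and rho = 0.78, with the same permutation p (r = 0.76 without 2 libraries). Rbpms and Pou4f1 had r = 0.73 and rho = 0.73, again with that permutation p (r = 0.67 without 2 libraries). Pou4f2 ranged from r = 0.06 and rho = 0.06 with Nefh (permutation p = 0.726 and 0.684) to r = 0.40 and rho = 0.38 with Nefl (permutation p = 0.00918 and 0.0146, adjusted p = 0.0121 and 0.0187) among the neurofilaments. Slc17a6 and Sncg were the one negative pair, with r = -0.08 and rho = -0.0043 (permutation p = 0.612 and 0.979).

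**Figure D4:**
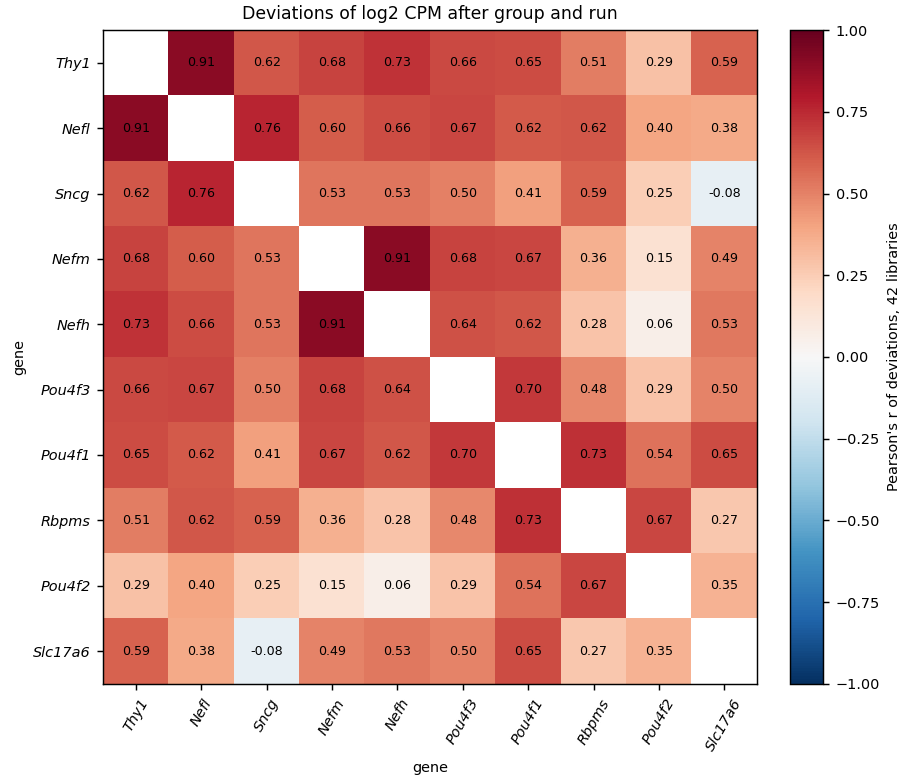
Pearson's r between pairs of the 10 genes (rows and columns) of the deviations of log2 CPM from group and run over 42 libraries; red is positive and blue negative. Nefl with Thy1 and Nefm with Nefh are highest at 0.91, and the Pou4f2 and Slc17a6 rows hold the palest cells.

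Against the mitochondrial share, handled in the same way and with the same limit on the p-values, 3 of the 10 members passed a permutation test adjusted over the 10. The share of all genes passing such a test was not determined, so this count is not read as particular to the members. Nefh had r = -0.63 and rho = -0.56 (permutation p = 1e-05, the smallest that 100000 permutations can give, and 0.0001; adjusted p = 0.0001 and 0.001), and r = -0.56 without the 2 libraries farthest from the median share. Nefm had r = -0.55 and rho = -0.53 (permutation p = 0.00013 and 0.0004, adjusted p = 0.00065 and 0.002), and r = -0.52 without 2 libraries. Slc17a6 had r = -0.40 and rho = -0.46 (permutation p = 0.00819 and 0.00244, adjusted p = 0.0273 and 0.00813), and r = -0.43 without 2 libraries. Nefl (r = 0.01) and Sncg (r = 0.01) were near 0 (permutation p = 0.953 and 0.963).

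**Figure D5:**
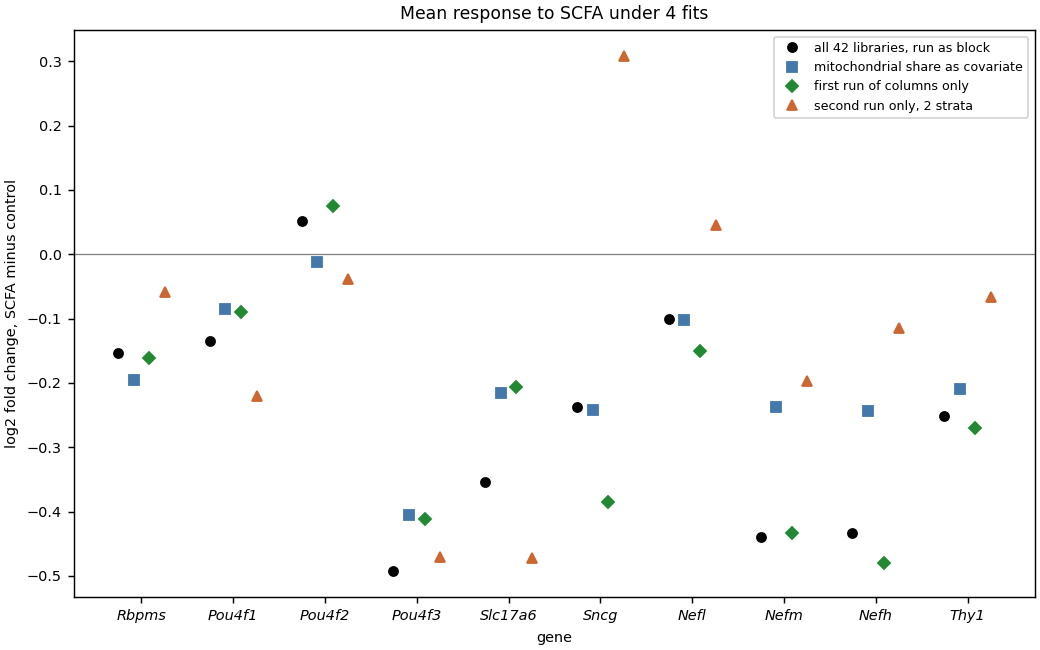
Log2 fold change of SCFA minus control (y axis) of each gene (x axis) in the mean of the strata, from all 42 libraries, with the mitochondrial share as a covariate, in the first run alone and in the 2 strata that the second run holds. With the covariate Nefm goes from -0.44 to -0.24 and Nefh from -0.43 to -0.24, and Sncg changes from -0.38 in the first run to 0.31 in the second.

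Other genes known from ganglion cells were examined as lists. Of 16 further genes of ganglion cells, not all of them found in every ganglion cell, 9 fell and 3 rose with SCFA in the averaged comparison. Their median log2 fold change was -0.19. Of all genes tested, 36.7% were called in it, 19% as lower. Those with the smallest adjusted p were Gap43, a growth cone protein (-0.34 ± 0.07, SE), Isl2, a transcription factor of a ganglion cell subset (-0.45 ± 0.09), Uchl1, a neuronal ubiquitin hydrolase (-0.39 ± 0.08), and Isl1, a transcription factor that acts with Pou4f2 (0.25 ± 0.05). Isl1 thus rose while the other 3 fell, with edgeR's adjusted p between 0.000232 and 0.000755. In males at 14 dpl 5 of the 16 fell and none rose, led by Isl2 (-0.86 ± 0.23, SE) and Uchl1 (-0.78 ± 0.21). Of all genes, 9.68% were called there, 5.15% as lower. In males at 7 dpl 3 of the 16 rose and none fell, a smaller share than the 23.8% called of all genes. They were Elavl4, an RNA-binding protein (0.98 ± 0.20), Ebf1 (0.77 ± 0.19) and Isl1 (0.48 ± 0.13).

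Of 16 genes of ganglion cell subtypes, 3 fell and 1 rose in the averaged comparison, a smaller share than the 36.7% called of all genes, with a median of -0.14. Opn4, the melanopsin of intrinsically photosensitive ganglion cells, fell by 0.47 on the log2 scale (SE 0.09), with edgeR's adjusted p = 0.000275. Tbr1, a transcription factor of other subtypes, rose by 0.46 ± 0.12 (SE), and Irx3 (-0.29 ± 0.08) and Mmp17 (-0.22 ± 0.07) fell. Of 11 genes that injured ganglion cells induce, 5 fell and none rose, with a median of -0.24. Ddit3, a transcription factor of the unfolded protein response, changed by -0.45 ± 0.07 (SE; edgeR's adjusted p = 2.03e-05), and Atf3, a transcription factor of injured neurons, by -0.59 ± 0.12 (edgeR's adjusted p = 0.000232). Gal (-0.62 ± 0.20) and Ecel1 (-1.01 ± 0.34) were the next. Atf3 and Ddit3 are also made by other cells of the retina.

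Genes of neighbouring cell types are given for the same comparison, to be read against the 36.7% of all genes called in it. Among amacrine genes 2 rose and 2 fell of 7, among bipolar genes 2 rose of 6, among horizontal cell genes none was called of 4 (0 at an unadjusted p under 0.05), among rod genes 1 fell of 6, and among Müller cell genes 3 rose and 2 fell of 7. Of the 4 horizontal cell genes, 2 had a negative change, with a median of -0.0045. None of 9 tested myelin genes was called, nor of 6 lens genes, nor the 1 tested T cell gene, and none of these had an unadjusted p under 0.05. Of 5 smooth muscle and pericyte genes 1 rose and 2 fell, and of 5 pigment epithelium genes 1 fell.

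The protein-coding genes whose log2 CPM followed the mean z-score of the 10 members most closely, over 42 libraries with the run removed, were Sult4a1 (r = 0.90), Calb2 (0.90), Trarg1 (0.89), Tmem163 (0.89), Stk32c (0.88), Cplx1 (0.88), Nat8l (0.87), Rbpms2 (0.86), Golga7b (0.86) and Vamp1 (0.86). Calb2 encodes calretinin of amacrine and ganglion cells, Cplx1 and Vamp1 encode proteins of synaptic vesicle release, and Rbpms2 is the paralogue of Rbpms. All 10 had a negative averaged change under SCFA, from -0.68 for Trarg1 to -0.27 for Golga7b. Treatment and library were left in these values, so shared group differences count towards r. The shared sign under SCFA is thus partly set by the choice of these genes and is no separate result. Of the members themselves, Thy1 followed the mean of the other 9 most closely (r = 0.88) and Pou4f2 least (r = 0.33).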

How the data were processed

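RNA of 43 libraries of lasered mouse retina had been sequenced in pairs on an Illumina NovaSeq. The deposited table holds raw read counts per gene as the authors made them, with mm10 and DESeq2 named in the submitters' processing notes. The aligner, counter and use of strand are not given in the sources used here. Groups were read from the library names in the labels, whose treatment field gives one value for all samples. Of 54532 gene IDs, 54495 matched GENCODE M21 (GRCm38).

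Libraries were scaled by TMM and genes filtered with filterByExpr in edgeR 4.0.16 (R 4.3.3). One quasi-likelihood fit of 42 libraries had the 12 groups and the run of columns as terms. P-values were adjusted by the Benjamini-Hochberg method over all genes tested, and a gene was called at an adjusted p under 0.1. CPM per kb divides CPM by exon length. Replicates were compared first: over 59 pairs within groups, the chi-square per gene was at least 3.59, so none was a repeated library. The labels do not say that replicates came from separate cohorts, so p-values measure the spread between these libraries. Fits were tested on simulated counts.

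The members and lists were chosen with earlier results of these data known. The genes named were the 10 members, up to 4 called genes of each other list and comparison by smallest adjusted p, and the 10 genes most like the members. Alternatives were DESeq2 1.42.0, RLE scaling, other filters, thresholds and blocks, subsets of libraries, and each library left out. Those with the mitochondrial share, an offset for GC content and length, the second run alone, and the libraries high in mitochondrial or myelin genes left out were added after the data had been seen.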

Additional observations from a re-analysis of the deposited data

Results flagged for a closer look

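Sncg stood at 162.2 CPM in F14SCFA1, where the other F14SCFA libraries held 99.8 to 106.2 CPM. The gap was 0.897 of the group's range, above Dixon's critical value for 4 samples. It was the 1 value found among 50 combinations of member and group, where chance gives about 1 in 20, and the group's other first-run libraries were not as high.

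The response of Sncg to SCFA differed between the runs of columns by 0.79 on the log2 scale (second minus first run, SE 0.221, edgeR's adjusted p = 0.0135). First-run controls held 123 to 222 CPM and first-run SCFA libraries 74.3 to 162 CPM (n = 15 each). Second-run controls held 72 to 99 CPM (n = 4) and second-run SCFA libraries 92.3 to 132 CPM (n = 8). These controls were of M3CTR and F14CTR only, while the SCFA libraries also came from M7SCFA, F3SCFA and F7SCFA, so sex and day differ between them. The cause was not tested.

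The 6 lens genes summed to 210400 CPM in F3SCFA2, a library outside all comparisons. In the control libraries they summed to 0.51 to 355 CPM, and in the other SCFA libraries to 2.935 to 602 CPM.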

How the results depend on the processing

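Counts of members called, with their alternatives, were as follows, and no called member reversed. For SCFA in the mean of the strata the count of 7 became 4 without the block for the run of columns, 4 with the mitochondrial share and 0 at a fold over 2, and 5 to 8 on leaving out a library (5 without F3SCFA1, F7SCFA3 or F3CTR2). For males at 14 dpl the count of 5 became 0 without that block, 2 in the first run, 3 with the mitochondrial share, 2 with the GC and length offset, 1 at an adjusted p under 0.05, 1 at a fold over 2 and 8 in the study's own libraries alone, and 0 to 6 on leaving out a library. For males at 7 dpl the count of 2 became 0 without that block, with the mitochondrial share, without M7SCFA1 and M7SCFA3, without the myelin-rich libraries, at p under 0.05 and at a fold over 2, and 1 with F3SCFA2, in the first run, with the GC and length offset and in the study's libraries. Leaving out a library gave 0 to 3. For control males against females at 14 dpl the count of 4 became 7 without a filter, 2 with the GC and length offset, 1 at p under 0.05, 1 at a fold over 2, and 0 without that block, in the first run, with the mitochondrial share and in the study's libraries, and 0 to 2 on leaving out a library. Counts of 0 rose without a filter to 1 in males at 3 dpl, 2 in females at 3 dpl, 3 in females at 7 dpl, 1 from 7 to 14 dpl and 3 for the male minus female response at 14 dpl. Females at 7 dpl had 1 with DESeq2 and 0 to 4 on leaving out a library (4 without F7CTR3, 2 without F7SCFA2, 1 without F7SCFA4), and females at 14 dpl had 4 in the study's libraries. The share of all genes called in each alternative is not given beside these counts, so their rises and falls are not read as particular to the members. Causes were not tested.

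With the replicate number as a block (replicate block), the count was 1 in males at 7 dpl and 0 for control males against females at 14 dpl, and it moved no other count by over 1.5 times. The numbers did not pair the libraries: deviations of 17 same-numbered pairs correlated at -0.41 to 0.49, 3 of them over 0.1, and 6 matched best by number. Depth limits Pou4f3 most, whose lowest count was 39.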

Other observations

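Of 16 genes of ganglion cell subtypes, 3 transcription factors rose in males at 7 dpl with SCFA, a smaller share than the 23.8% called of all genes in that comparison. Tbr1 rose by 1.44 ± 0.29 (SE, log2), Foxp2 by 1.16 ± 0.31 and Satb1 by 0.50 ± 0.13, with edgeR's adjusted p between 0.00105 and 0.00776. None of the 16 fell. Of the injury genes, Gal (-1.24 ± 0.46) and Ddit3 (-0.40 ± 0.17) fell in the same comparison. The myelin-rich libraries M7CTR2, M7CTR3 and M7SCFA2 and the libraries with the highest mitochondrial shares, M7SCFA1 and M7SCFA3, are all in it, and their part was not tested.

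From 3 to 14 dpl 288 of all genes were called (1.58%). Of the ganglion cell lists these included Spp1, osteopontin of some large ganglion cells and also of microglia, and Sprr1a, which injured neurons induce, and of the smooth muscle and pericyte list Rgs5 (-0.36 ± 0.07, SE) and Acta2 (-0.82 ± 0.21). Averaged over sex and treatment, Spp1 fell by 0.94 on the log2 scale (SE 0.156) from 3 to 7 dpl and by 1.09 (SE 0.1595) from 3 to 14 dpl. Sprr1a fell by 2.96 (SE 0.659) from 3 to 14 dpl, with edgeR's adjusted p = 0.0187.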
